A study of Mus musculus with 4 samples.

Results

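Among the peaks of acetylated histone H3 lysine 27 (H3K27ac) in the mouse heart, 976 lay away from gene starts with their summit inside an exon of a protein-coding gene. A peak was counted when all of it was over 2.5 kb from any transcription start site (TSS), its summit, the position of highest signal, fell in an annotated exon, and the summit was over 1 kb from the 3′ end of that gene. These exonic distal peaks were 976 of the 63061 peaks found with both biological replicates (1.55%) and 976 of the 37273 peaks over 2.5 kb from any TSS (2.62%, 95% exact binomial interval 2.46% to 2.79%). By the same limits 21400 distal peaks had their summit in an intron, 643 lay within 1 kb of a gene's 3′ end and 14254 lay elsewhere.

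The mark was measured by ChIP-seq, the sequencing of DNA pulled down with an antibody to H3K27ac, on heart tissue of adult female B6CASTF1/J mice aged 2 months, the F1 cross between the strains C57BL/6J and CAST/EiJ, with no treatment named. The 4 libraries stand for 2 pools that join 2 hearts' tissue samples apiece, sequenced as 2 technical replicates per pool, and the labels name the same donor for both pools. They form 1 group, so the comparisons are between kinds of sequence and between the replicate pools. Technical replicates were joined before peaks were called, so a value per replicate below is the fold of the strongest overlapping peak in the list of that replicate, and read depth is unknown. Of the marker genes checked, 8 of 8 of cardiomyocytes, 4 of 4 of endothelial cells and 4 of 4 of fibroblasts had a peak within 1 kb of a TSS, as did 1 of 3 of skeletal muscle, while 0 of 3 of hepatocytes and 0 of 3 of neurons did. Whole heart mixes these cell types, and a peak does not tell which of them carries the mark.

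H3K27ac is placed by the acetyltransferases p300 and CBP and marks active promoters and active enhancers, the elements that raise transcription of a gene from a distance. Most enhancers lie in introns or between genes. Some overlap exons, where the same bases serve both as part of a transcript and as binding sites for transcription factors, and such elements have been described to act on the host gene or on a neighbour. A peak over an exon marks the nucleosomes there, and its width of several nucleosomes often exceeds that of a single exon.

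For 56 of the peaks in both replicate lists the 240 bp around the summit lay wholly inside 1 coding exon. The sequence around their position of highest signal is thus protein-coding, though the rest of the peak may not be. The sequences of the 6 with the highest fold are shown for that reason. All are from GRCm38, the assembly of mm10, 5′ to 3′ on the coding strand, and capitals mark matches to any of 17 consensus words described further on. Syp, for synaptophysin, a membrane protein of synaptic vesicles, is at chrX:7648576-7648815 (+), in exon 6 of 7. Fmo5, a flavin-containing monooxygenase, is at chr3:97651518-97651757 (+), in exon 9 of 9. Notch3, a receptor known from vascular smooth muscle, is at chr17:32122451-32122690 (-), in exon 33 of 33. Stox1, a winged-helix protein, is at chr10:62664866-62665105 (-), in exon 3 of 4. Ccdc92b, a coiled-coil protein, is at chr11:74638271-74638510 (+), in exon 4 of 4. Usf3, a helix-loop-helix protein, is at chr16:44215804-44216043 (+), in exon 7 of 7.
Syp: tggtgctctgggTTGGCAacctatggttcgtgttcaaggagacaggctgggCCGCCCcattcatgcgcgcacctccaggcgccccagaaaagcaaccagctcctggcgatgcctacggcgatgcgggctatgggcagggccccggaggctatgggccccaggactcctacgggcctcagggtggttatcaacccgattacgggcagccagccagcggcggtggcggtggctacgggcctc
Fmo5: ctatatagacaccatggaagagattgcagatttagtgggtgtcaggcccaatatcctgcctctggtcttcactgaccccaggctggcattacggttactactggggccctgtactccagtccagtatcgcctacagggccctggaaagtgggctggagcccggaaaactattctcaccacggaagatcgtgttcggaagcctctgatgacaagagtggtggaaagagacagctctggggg
Notch3: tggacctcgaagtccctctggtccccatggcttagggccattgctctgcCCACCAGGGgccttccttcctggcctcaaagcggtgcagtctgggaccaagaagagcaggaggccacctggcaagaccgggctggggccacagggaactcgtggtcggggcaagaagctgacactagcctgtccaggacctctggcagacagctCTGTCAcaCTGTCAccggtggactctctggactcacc
Stox1: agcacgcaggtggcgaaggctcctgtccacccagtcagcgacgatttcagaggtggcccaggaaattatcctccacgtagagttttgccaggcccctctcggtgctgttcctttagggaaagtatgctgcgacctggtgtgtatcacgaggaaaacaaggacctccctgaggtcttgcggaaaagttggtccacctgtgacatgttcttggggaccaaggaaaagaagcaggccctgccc
Ccdc92b: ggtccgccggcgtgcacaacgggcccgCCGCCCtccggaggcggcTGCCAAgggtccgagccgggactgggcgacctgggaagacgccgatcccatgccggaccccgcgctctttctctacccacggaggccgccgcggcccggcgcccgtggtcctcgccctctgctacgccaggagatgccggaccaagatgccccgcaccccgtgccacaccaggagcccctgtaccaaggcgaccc
Usf3: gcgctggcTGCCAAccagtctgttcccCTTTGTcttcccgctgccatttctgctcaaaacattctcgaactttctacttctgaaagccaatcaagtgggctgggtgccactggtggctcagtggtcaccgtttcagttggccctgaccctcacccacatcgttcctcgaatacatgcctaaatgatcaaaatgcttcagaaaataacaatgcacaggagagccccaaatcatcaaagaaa

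The 6 windows differ widely in base composition. The Ccdc92b window is 74.6% G or C with 29 CpG, the Syp window 66.7% with 17 CpG and the Notch3 window 62.9% with 6 CpG. The Stox1 window is 55.8% G or C with 9 CpG, the Fmo5 window 54.2% with 6 and the Usf3 window 49.2% with 6. The word GGGCGG of the KLF and SP factors stood in the Syp and Ccdc92b windows, read on the other strand. The CTCF core word CCACNAGGG and a pair of MEIS words TGACAG stood in the Notch3 window, while the Fmo5 and Stox1 windows held none of the 17 words.

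The first question is which parts of exons the summits occupied. At the summit, 402 of the 976 peaks were on coding sequence (41.2%, interval 38.1% to 44.4%). A further 361 were in 3′ untranslated regions (UTRs; 37.0%), 202 in exons annotated only in non-coding transcripts of the gene (20.7%) and 11 in 5′ UTRs (1.13%). Of the 202, 148 belonged to transcripts with a retained intron, 42 to other processed transcripts and 12 to transcripts marked for nonsense-mediated decay. So for the retained-intron transcripts the exon of one annotated isoform may be the intron of another. Among the 402 coding summits, 312 were in an internal exon of the representative transcript (77.6%), 88 in the last exon and 2 in the first.

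The 3 main classes also differed in how the peak sat on its exon. The median coding exon under a summit was 204.5 bp long, and the median coding peak was 536 bp wide (interval 496 to 572). Of the 402 coding peaks, 223 covered their whole exon (55.5%), 65 lay inside it (16.2%) and 189 had an exon edge within 50 bp of the summit (47.0%). By contrast, the median exon under a 3′ UTR summit was 3754 bp long and 293 of 361 such peaks lay inside it (81.2%), as did 128 of 202 on non-coding transcript exons (63.4%), with a median exon of 2092.5 bp. Most coding summits thus belonged to a peak that also covered flanking sequence on both sides, and most 3′ UTR summits to a peak within a long exon.

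Along their genes, coding summits had a median relative position of 0.73 (0 is the 5′ end, 1 the 3′ end), 3′ UTR summits 0.93 and non-coding summits 0.49. The median distance from the edge of the peak to the nearest TSS was 7.67 kb (interval 7.13 to 8.08), against 11.5 kb for intronic distal peaks (11.3 to 11.7). For 634 of 976 that nearest TSS was one of the host gene (65.0%). Of the 976, 59 lay also within the span of a second protein-coding gene (6.05%). Close neighbours were common: the median gap to the next peak of the list was 384 bp (interval 286 to 490; 351 bp for intronic distal peaks), and 590 of 976 had another peak within 1 kb (60.5%, against 63.3% of intronic distal peaks). For coding summits the median gap was 630 bp (interval 427 to 983).

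The next question is whether summits were more or less frequent in exons than in introns. Exonic bases over 2.5 kb from any TSS and over 1 kb from the gene's 3′ end held 23.8 summits per Mb (exact Poisson interval 22.4 to 25.4, 976 in 40.9 Mb). Intronic bases by these limits held 27.4 (27.03 to 27.77, 21400 in 781 Mb), a ratio of 0.870 (0.815 to 0.928). With the TSS limit set on the summit and not on the whole peak, the ratio was 0.905 (0.850 to 0.963). Coding sequence had 22 summits per Mb (19.9 to 24.3), UTRs 24.7 (22.3 to 27.4) and exons of non-coding transcripts only 26.5 (22.9 to 30.4). The ratio to introns was 0.803 for coding sequence (0.726 to 0.887), 0.903 for UTRs (0.812 to 1.00) and 0.966 for non-coding exons (0.837 to 1.11). The interval for non-coding exons includes 1 and that for UTRs just reaches it. Summit density was thus lower in all exons than in introns as a whole. Coding sequence had an interval wholly below 1, but the intervals of the 3 classes overlap one another. All these intervals take summits as independent, and close neighbours were common, so they may be too narrow.

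The direction turned when exons were set against the introns beside them. Introns had 18.6 summits per Mb in the 100 bp next to an exon, 18 from there to 250 bp and 18.5 from there to 500 bp. The density was 21.5 between 500 and 1000 bp, 27.1 between 1000 and 2500 bp and 29.6 farther away. Over all introns within 1 kb of an exon it was 19.7 (interval 19.0 to 20.4), and the exon density was 1.21 times that (1.13 to 1.30). For coding sequence the ratio was 1.12 (1.01 to 1.24), an interval that comes close to 1. The direction thus depended on which introns were compared. Among coding exons, density was 24.0 per Mb for exons under 100 bp, 19.6 from 100 to under 200 bp, 24.6 from 200 to under 500 bp, 27.9 from 500 to under 1000 bp and 20.5 for longer ones, with intervals that overlap their neighbours.

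**Figure D1:**
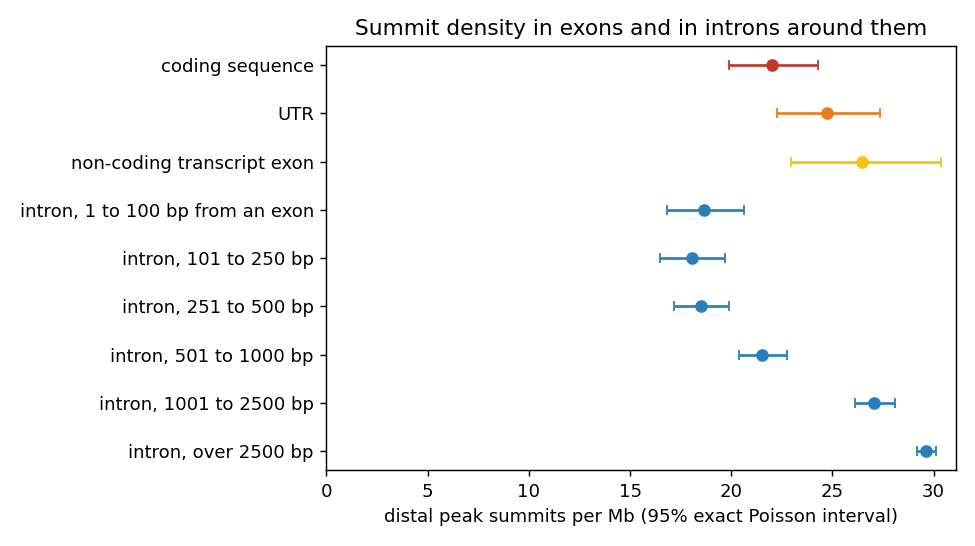
Distal peak summits per Mb (horizontal axis, from 0) in 3 classes of exon and in introns by distance to the nearest exon, with 95% exact Poisson intervals as bars. The 3 intron classes within 500 bp of an exon lie at 18 to 18.6, below coding sequence at 22, and introns over 2500 bp away lie above it at 29.6.

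Whether the host gene had a peak at its own start changed both densities. In genes with a peak within 1 kb of a TSS, exons held 31.0 summits per Mb and introns 41.5, a ratio of 0.748 (0.699 to 0.800). In genes without one, exons held 6.69 (81 summits) and introns 4.23 (1248 summits), a ratio of 1.58 (1.25 to 1.98). The 2 intervals do not overlap, though both take summits as independent. In genes with a promoter peak, introns in the 100 bp next to an exon held 25.5 summits per Mb (22.9 to 28.3), below the 31.0 of exons (29.0 to 33.1). Within the genes with a promoter peak, the exon to intron ratio was 0.751 at 2.5 to 5 kb from a TSS, 0.662 at 5 to 10 kb, 0.653 at 10 to 20 kb and 0.819 at 20 to 50 kb. Beyond 50 kb only 19 exonic summits remained, and the ratio of 0.697 had an interval of 0.418 to 1.09.

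The deposited fold of a peak is the authors' value, read as enrichment over a control from its place among the columns, since the files do not name it. It is compared between kinds of peak within 1 list only. Where values of the 2 replicate lists stand side by side, read depth is unknown. The median fold was 3.80 for exonic distal peaks (interval 3.70 to 3.94) and 3.79 for intronic ones (3.76 to 3.79), a difference of 0.01. Peaks elsewhere had a median of 4.12 (4.08 to 4.17), and those near a 3′ end 4.08 (3.88 to 4.26). By class the median fold was 3.89 on coding sequence (3.70 to 4.12), 3.81 in 3′ UTRs (3.60 to 4.06) and 3.60 on non-coding exons (3.43 to 3.89), with overlapping intervals. The median width was 548 bp (525 to 588) against 583 bp for intronic distal peaks (574 to 594), again overlapping. A fold of at least 10 was reached by 48 of 976 (4.92%) and by 2425 of all 37273 distal peaks (6.51%), and 76 were wider than 2 kb (7.79%, against 8.55%).

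**Figure D2:**
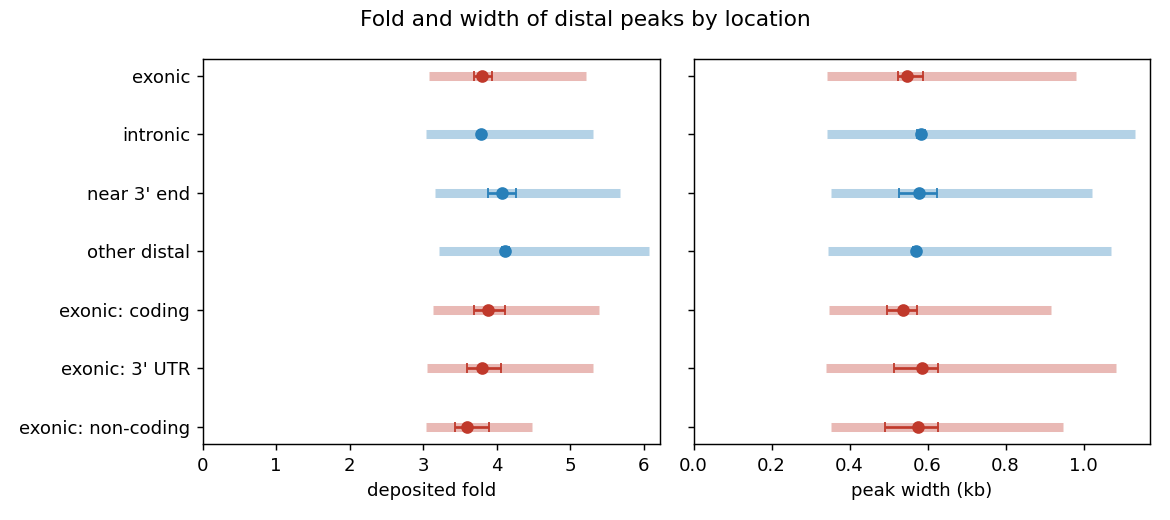
Deposited fold (left) and peak width in kb (right) of distal peaks of the replicated list by location; dots are medians with 95% intervals, thick bars run from the lower to the upper quartile. Exonic and intronic peaks have medians of 3.80 and 3.79 for fold, and 548 bp and 583 bp for width.

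The replicates found exonic peaks about as often as other distal peaks. Of the 976, 677 overlapped a peak in the list of biological replicate 1 (69.4%) and 869 one in that of replicate 2 (89.0%). In both lists were 640 (65.6%, interval 62.5% to 68.6%), and the background over all distal peaks was 66.2%. In neither were 70 (7.17%, 5.63% to 8.97%), with a background of 7.62%. A q above 0.05 was listed for 31 (3.18%, 2.17% to 4.48%), with a background of 2.76%. Coding summits were in both lists in 263 of 402 cases (65.4%), 3′ UTR summits in 233 of 361 (64.5%) and non-coding ones in 136 of 202 (67.3%). None of these shares stands apart from the background beyond its interval.

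In the 640 peaks found in both, the median fold was 4.16 in replicate 1 (lowest 1.85, highest 20.7) and 6.03 in replicate 2 (lowest 2.55, highest 39.8). Replicate 2 had the higher value in 565 of 640 (88.3%), and in 89.6% of all distal peaks found in both, so the lists differ in the same way over the whole set.

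**Figure D3:**
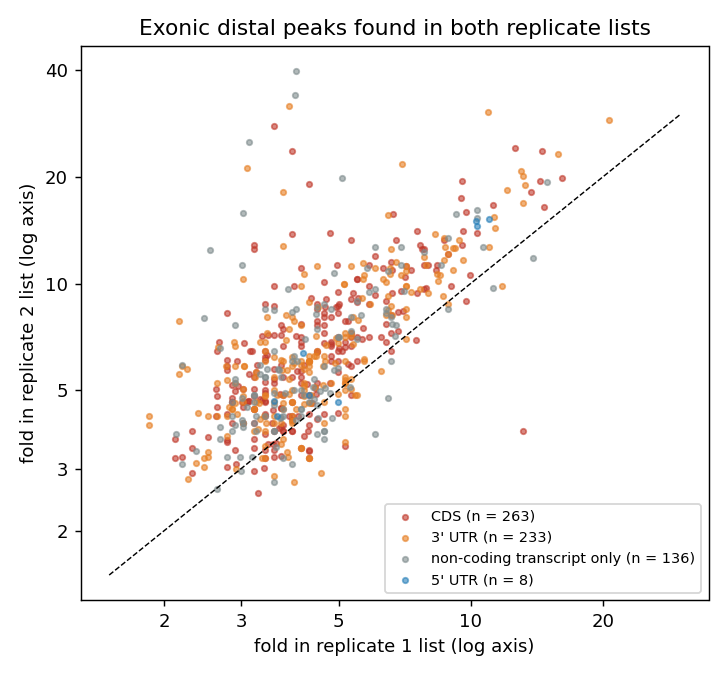
Fold in the list of replicate 1 (horizontal, log axis) and replicate 2 (vertical, log axis) for the 640 exonic distal peaks in both lists; each dot is a peak, coloured by exon class, and the dashed line marks equal values. Most dots, 565 of 640, lie above the line, and a few lie far above it, among them Lmod2, where the overlapping replicate 2 peak has its summit 6075 bp away.

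Overlap of a peak does not fix the summit in an exon. The summit moved by a median of 25 bp in replicate 1 and 31 bp in replicate 2. It was in the same exon in both for 458 of the 640 (71.6%, interval 67.9% to 75.0%). This share was 88.8% for 3′ UTR summits (207 of 233), 78.7% for non-coding ones (107 of 136) and 53.2% for coding ones (140 of 263; 47.0% to 59.4%). Of all 402 coding members, 140 (34.8%, 30.2% to 39.7%) therefore had their summit in the same coding exon in both replicates. Coding summits lay in exons of median 204.5 bp, far shorter than those of the 3′ UTR and non-coding classes. A smaller move thus takes a coding summit out of its exon, and the part of exon length in these shares was not tested.

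The named peaks were chosen by fold, width, gene list or position. The strongest of all, at chr7:132712123-132716429, was in the 3′ UTR of Fam53b. Its fold was 24.8, with 20.7 in replicate 1 and 29.0 in replicate 2, and its summit moved by 4 and 2 bp. Next came Hist1h2be, a histone H2B gene, with a summit in its 3′ UTR in a peak whose edge was 2612 bp from a TSS of Hist1h4d. Its fold was 19.2, with 15.8 and 23.2 in the replicates. Both were high in both pools, each with a summit in the same exon.

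The strongest coding summit was in exon 6 of 13 of Tbc1d2b, a gene of the TBC family that acts on Rab GTPases. Fold was 19.1, with 14.6 in replicate 1 and 23.8 in replicate 2; the peak was 1.64 kb wide and 29.4% of it was exon. Syp had a fold of 18.1, with 12.6 and 24.2 in the replicates, in a peak of only 582 bp at chrX:7648325-7648906. This was the 1 of 20 listed neuron genes with such a peak, and Syp had no peak within 1 kb of a TSS. Fmo5 followed with 17.8 (16.2 and 19.9 in the replicates) and Notch3 with 17.4 (14.7 and 16.4) in a peak of 3.93 kb. In these 4 the summit of both replicates was in the same coding exon.

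Outside coding sequence, Sbno2, a transcriptional coregulator, had a fold of 17.1 on an exon of a non-coding transcript (14.9 and 19.3). Coro2b, an actin-binding coronin, had 16.6 in its 3′ UTR (13.0 and 20.8), and Klf13, a Krüppel-like factor, 15.8 in its 3′ UTR (13.3 and 18.9). Rnf122, a RING-finger gene, had 15.3 on a non-coding exon and was higher in replicate 1 (13.9) than in replicate 2 (11.8). H13, the signal peptide peptidase gene, had 14.9 in its 3′ UTR (13.2 and 20.1), and Ldb3, described with the sarcomere genes, makes up the 12 strongest. All 12 were in both lists, each with its summit in the same exon in both. They were chosen by fold, and 97.9% of members with a fold of at least the list's median were in both lists. Their presence in both lists is thus no separate support.

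The widest was a peak of 6.21 kb at chr10:68124487-68130695 over exon 6 of 10 of Arid5b, an ARID-domain DNA-binding protein. Its fold was 11.9, with 9.54 in replicate 1 and 19.5 in replicate 2, but only 4.16% of it was exon and the replicate 2 summit was 613 bp away, outside the exon. Asb15, a SOCS-box gene of striated muscle, had 5.30 kb in its 3′ UTR with a fold of 7.75. Vgll4, a cofactor of TEAD factors, had 4.77 kb over exon 2 of 5, of which 3.98% was exon, with 7.83 and 11.3 in the replicates. Plxna2 (4.72 kb), Ednrb (4.63 kb) and Mlec (4.62 kb) were in the same range. Such wide peaks had their summit in an exon but spread mostly over introns in Arid5b and Vgll4, while the Mlec peak was 100% exon.

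At least 1 exonic distal peak was held by 776 of 21951 protein-coding genes, a background of 3.54%. Of genes with a promoter peak 704 of 12468 were hosts (5.65%). Of the 776 hosts, 704 had a promoter peak (90.7%, interval 88.5% to 92.7%), above the background of 56.8% of all protein-coding genes. Genes with an intronic distal peak but no exonic one had a promoter peak in 85.7% of cases (84.6% to 86.8%) and the intervals do not overlap. An intronic distal peak was also present in 571 of the 776 hosts. When each peak was assigned to 1 host, 596 genes had 1, 151 had 2, 17 had 3 and 5 had more.

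Kdr, which encodes the VEGF receptor 2 of endothelial cells, had the most, with 8 in its 45.6 kb, beside 9 intronic distal peaks. From its 5′ end, the first was over exon 5 of 30, with a fold of 3.08 (2.91 in replicate 1 and 3.09 in replicate 2). The strongest 2 lay in the same exon of a shorter non-coding transcript, at chr5:75962392-75963924 with a fold of 8.15 (8.54 and 11.3) and at chr5:75960997-75962184 with 7.01 (6.41 and 8.24). These kept their summits in that exon in both replicates. In the transcript with the longest coding sequence, both summits of the replicated list lay in an intron.

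Farther along Kdr, a peak over exon 13 had a fold of 2.496 and was overlapped in replicate 2 only. A pair in an exon of another non-coding transcript had 3.13 (2.68 in replicate 1) and 2.75 (3.03 in replicate 1). All 3 overlapped a single replicate 2 peak of 3.93, whose summit was 1100 bp from that of the exon 13 peak. The summits of the pair lay in an intron of the transcript with the longest coding sequence. Exon 21 had 3.98 (4.10 in replicate 1), and the replicate 2 peak over it, at 7.67, had its summit 2258 bp away. Exon 28 had 2.72 with no peak in either replicate. So 6 of the 8 were in both lists, and none of the 4 coding ones had its summit in the same exon in both.

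**Figure D4:**
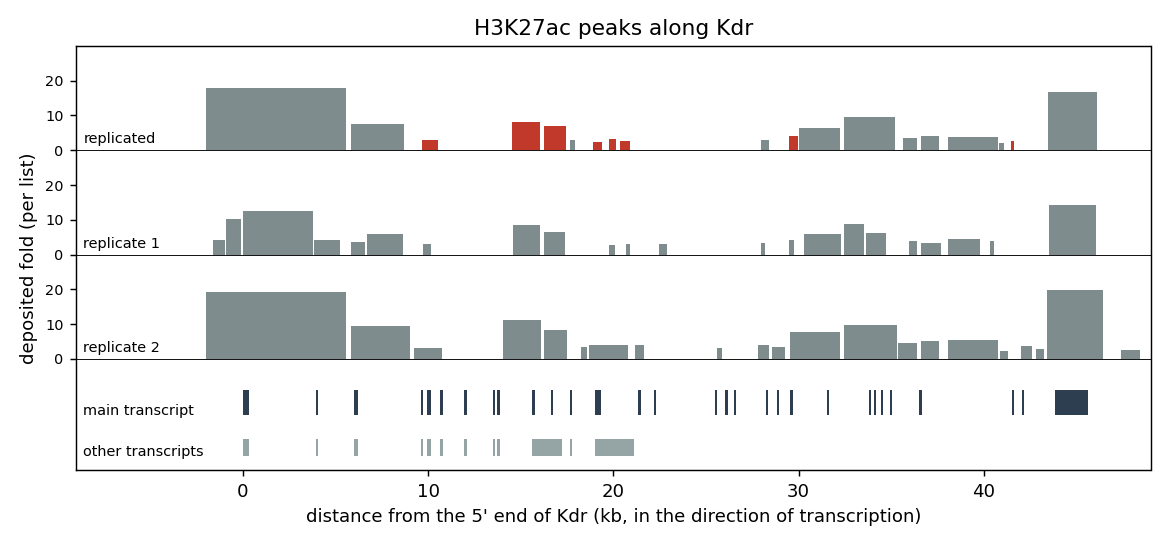
H3K27ac peaks along Kdr (horizontal axis, kb from its 5′ end in the direction of transcription) in 3 lists, with bar height giving the deposited fold of each list and red marking the 8 exonic distal peaks of the replicated list. Boxes at the bottom are exons of the transcript with the longest coding sequence and, below it, of the others; the 2 tallest red bars, at 8.15 and 7.01, lie on an exon of the shorter transcripts.

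Cask, a scaffold kinase of the membrane-associated guanylate kinase family on the X chromosome, had 6, none coding. Of these 5 stood in its last exon of 5268 bp, their fold ran from 2.44 to 4.93 and all 6 were in both lists. Some of the 6 overlapped the same peak of a replicate list. Slc16a1, for the lactate and pyruvate transporter MCT1, had 5 with a fold of 2.78 to 3.66, of which 1 was in both lists and the other 4 in replicate 2 only. Those 4 formed pairs that shared their replicate 2 peak, of 4.02 and 3.07. Slc4a3, an anion exchanger expressed in heart, had 4, and its 3′ UTR peak reached 8.34 (6.54 and 11.1) while the other 3 were at 2.75 to 3.60. Lrtm1 also had 4, at 3.32 to 4.06. The next 3 by position, with 3 each, were Plekhm3, St8sia4 and 1700025G04Rik, whose highest values were 4.27, 7.36 and 6.70.

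The hosts are given by function in 12 gene lists, and every list is set beside the 3.54% of all protein-coding genes and the 5.65% of those with a promoter peak. All genes of 8 of the 12 lists had a promoter peak, as did 34 of 35 matrix genes and 27 of 30 ion-handling genes, and gene length was not matched. Intronic distal peaks were held by 22 of 30 sarcomere, 23 of 30 ion-handling, 33 of 40 cytoskeleton and 26 of 35 matrix genes. They were in 21 of 34 endothelial genes, 37 of 40 transcription factors, 32 of 40 cofactors and 34 of 40 signalling genes. Clock genes had them in 9 of 19, metabolic in 19 of 40, neuron in 6 of 20 and hepatocyte in 2 of 20. Of genes with a promoter peak, 3823 of 12468 had them. High shares were thus not particular to exonic peaks. The contractile apparatus had 6 of 30 sarcomere genes with 10 peaks of median fold 3.78. Ldb3, a Z-disc protein, had 3, led by a peak of 4.64 kb at chr14:34541661-34546304 over exon 10 of 14 with a fold of 16.8 (14.4 and 19.5). The other 2 stood in its 3′ UTR at 4.96 and 3.05.

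Ttn, the giant spring protein of the sarcomere, had 2, both coding and both with the summit in the same exon in both replicates. The one over exon 223 of 347, an exon of 143 bp, had a fold of 11.7 (10.3 and 13.9) in a peak of 3.13 kb at chr2:76805469-76808595. The one over exon 136 had 4.78 (3.44 and 6.29). Lmod2, which elongates thin filaments, had 4.25 over exon 2 of 3, with 3.55 in replicate 1. Its replicate 2 value of 27.8 belongs to a peak whose summit was 6075 bp away, so it does not measure this exon. Myom1, Myom2 and Csrp3 had values of 2.75 to 3.32.

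Among 30 genes for ion channels, calcium cycling and conduction 10 were hosts, with 11 peaks of median fold 2.93. Ank3, an ankyrin, had 4.16 on a non-coding exon, and Kcnj2, the inward rectifier Kir2.1, had 3.51 in its 3′ UTR with a peak in replicate 2 only (2.61). Gja1 for connexin 43 (3.32), Jph2 for junctophilin 2 (2.92) and Atp2a2 for the SERCA2 calcium pump (1.93) were likewise in replicate 2 only. The median of this list lay below the 3.89 of all distal peaks. So did that of all exonic distal peaks (3.80) and those of the sarcomere, cytoskeleton, endothelial, transcription factor and clock lists.

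Cytoskeleton and adhesion genes had 13 hosts of 40, with 16 peaks of median fold 3.08. Dsp, for the desmosome protein desmoplakin, had 9.95 over exon 2 of 24 (9.78 and 8.90), with both replicate summits 85 and 117 bp away outside that exon of 103 bp. Vcl, for vinculin, had 9.46 in its 3′ UTR (7.91 and 11.3) and Syne1, a nuclear envelope spectrin, 5.40 over exon 51 of 146 (4.46 and 6.44). The remaining peaks of the list were at 2.25 to 5.02.

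Matrix genes had 5 hosts of 35 and endothelial genes 10 of 34, with 8 and 23 peaks of median fold 4.37 and 3.41. Sparc, a collagen-binding matrix protein, had 6.97 over exon 10 of 11 (6.85 and 7.36). Ltbp4, a binding protein of latent TGF-beta that is in both lists, had 3 coding peaks of 6.45, 5.40 and 4.17. Col3a1, a fibrillar collagen, had 2 on 1 non-coding exon, at 4.56 and 3.78. Beside Kdr, the endothelial hosts were Sema3g (5.12 and 3.41), Tal1 (4.41), Nrp1 (4.33), Tek (4.12), Sox7 (3.49), Heg1 (3.33), Flt1 (2.66 and 2.496) and Ets1 (1.81 to 2.87). Of the 23 endothelial peaks 8 were those of Kdr, so the number of peaks in this list rests in good part on 1 gene.

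Among transcription factors 8 of 40 were hosts, with 13 peaks of median fold 3.79. Klf13 was followed by Rreb1 (7.57 in a 3′ UTR, 8.42 and 10.2 in the replicates) and Gata6 (4.74 on a non-coding exon, 4.01 and 6.04). Mef2a had 4.13 over its last coding exon and 2.94 in its 3′ UTR. Chromatin and transcription cofactors had 9 hosts of 40 with 9 peaks and the highest median fold of the lists with over 1 peak, 5.66. There Bcl9l, a beta-catenin cofactor, had 14.6 in its 3′ UTR (13.2 and 16.9), Nrip1, a nuclear receptor corepressor, 10.4 in its last exon (7.55 and 14.1) and Bcor 9.86 (7.83 and 12.3). The Nrip1 peak was 89.7% exon, its summits moving by 2 and 3 bp.

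Signalling receptors and kinases had 10 hosts of 40, with a median of 4.29. Ednrb, the endothelin receptor B, had 13.1 in its 3′ UTR (11.3 and 15.4), Adra1a, the alpha-1A adrenergic receptor, 7.70 (7.13 and 9.82) and Prkce, a protein kinase C, 5.50 (4.42 and 5.11). Metabolic genes had 3 hosts of 40. These were Hadhb, of mitochondrial beta-oxidation, at 11.9 on a non-coding exon (10.7 and 12.7), Acacb at 4.08 and Lpl, the lipoprotein lipase, at 2.22. Clock genes had 2 of 19, Arntl at 3.99 and Clock at 2.66, the latter in neither replicate list. Hepatocyte genes had 0 of 20, with a promoter peak at 1 of 20, and neuron genes had Syp alone. With lists of 19 to 40 genes these counts rest on few genes each.

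The 81 peaks whose host gene had no promoter peak had a median fold of 3.89 (interval 3.51 to 4.64), against 3.79 for the other 895 (3.70 to 3.93). Their median width was 464 bp (383 to 567) against 555 bp (531 to 595). The median gap to the next peak was 1111 bp (255 to 4493) against 375 bp (281 to 469). After Syp, the strongest were Stox1 at 13.4 (11.2 and 16.7), Sf3b5, a splicing factor subunit, at 12.1 (10.3 and 14.5), Ccdc92b at 11.1 (9.54 and 12.9) and Spib, an ETS factor of B cells, at 10.8 (9.20 and 12.6). These genes were picked after their values were seen. The Sf3b5 summit was in the 5′ UTR of exon 1 of 1, and the peak's edge was 2545 bp from a TSS of Sf3b5, just past the 2.5 kb limit. The TSS nearest to the Stox1 peak was that of Gm18514 and the one nearest to the Ccdc92b peak that of Cluh, so the host is not always the nearest gene.

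Long coding exons carried some of these peaks. The summit in Spen, a large RNA-binding corepressor, lay in a coding stretch of 8020 bp that held the whole peak, with a fold of 4.27 (3.57 and 5.24). Usf3, with 6407 bp, had 11.1 (5.34 and 13.3), and its replicate 1 summit was 371 bp away in the same exon. Crybg3 (5.50), Rai1 (3.41), Hivep2 (2.999) and Naca (2.56) followed, of which Naca was in neither replicate list. At the limits of the rule, Mrpl17 (2503 bp) and Wt1 (2510 bp) were just over 2.5 kb from a TSS, and peaks in A930004D18Rik (2499 bp) and Znrf1 (2493 bp) just under. Tbx2 (1003 bp) and Sf3b5 (1008 bp) were just over 1 kb from the 3′ end, and Arhgef3 (997 bp) just under. The weakest in neither list were in Rgs4 (1.93), Ank2 (2.00), Sestd1 (2.12) and Serpini1 (2.14).

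The last comparison is of sequence, over 300 bp around each summit, which the choice of members used only through the exon annotation. The median G or C share was 53.7% for the 402 coding summits (interval 52.3% to 54.3%), 47.0% for intronic distal peaks (46.7% to 47.0%) and 48.3% for 6709 windows centred on coding exons of the host genes that had no peak (48.0% to 48.7%). The ratio of observed to expected CpG was 0.365 (0.340 to 0.380), 0.193 (0.191 to 0.196) and 0.306 (0.301 to 0.312) in the same order. So windows at coding summits were richer in G, C and CpG than windows on exons of the same genes without a peak. These are windows and not exons, and they hold unequal amounts of coding sequence. The median coding stretch was 181.5 bp under a summit and 123 bp over all coding exons without a peak, and the coding share of the windows was not matched.

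Consensus words were counted on both strands of these windows. GGGCGG, the box bound by KLF and SP factors, was in 53 of 402 coding windows (13.2%, interval 10.03% to 16.89%). It was in 4.14% of intronic distal windows (3.87% to 4.41%), 6.42% of exons of the host genes without a peak (5.85% to 7.04%) and 4.88% of all distal windows. The E-box CAGCTG was in 27.4% of coding windows (23.1% to 32.0%), 18.3% of intronic (17.7% to 18.8%), 20.3% of exons without a peak (19.4% to 21.3%) and 18.6% of all distal ones. The ETS word CCGGAAG was in 4.23% of coding windows (2.48% to 6.68%), 1.39% of intronic (1.24% to 1.56%) and 1.64% of all distal ones, but the interval for exons without a peak, 2.42% to 3.23%, overlaps. For GGGCGG and CAGCTG the coding share thus lay above both comparisons.

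Other words were less frequent in coding than in intronic windows. TAAAAATA of the MEF2 factors, known regulators of muscle genes, was in 4 of 402 coding windows (1.00%, 0.272% to 2.53%), 4.59% of intronic windows (4.32% to 4.88%), 3.03% of exons without a peak (2.63% to 3.46%) and 4.24% of all distal windows. AGATAA of the GATA factors was in 9.70% of coding windows (6.99% to 13.0%), 15.8% of intronic (15.3% to 16.3%), 13.4% of exons without a peak (12.6% to 14.2%) and 15.6% of all distal windows. The TEAD word GGAATG was in 12.7% of coding and 16.9% of intronic windows, where the upper bound of the first is 16.3% and the lower bound of the second 16.4%, but in 15.5% of host exons without a peak (14.7% to 16.4%), which overlaps. For TAAAAATA the coding share lay below both comparisons, and for AGATAA its interval overlaps that of exons without a peak. The G or C share of the windows moved with these words, and its part in the differences was not tested.

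Of the other words, TGANTCA of AP-1 was in 5.97% of coding (3.86% to 8.75%), 9.25% of intronic (8.86% to 9.64%), 7.57% of host exons without a peak and 9.57% of all distal windows. ACAAAG of SOX factors was in 19.9% of coding (16.1% to 24.1%), 25.9% of intronic (25.3% to 26.5%), 24.1% of host exons without a peak and 25.6% of all distal windows. The intervals for host exons without a peak, 6.95% to 8.23% for TGANTCA and 23.1% to 25.1% for ACAAAG, overlap those of coding windows. The rest had coding and intronic intervals that overlap, among them the NFI site TTGGCA at 20.4% and 17.3%, and MEIS TGACAG at 25.1% and 23.8%. The ERR word TCAAGGTCA, which contains the shorter nuclear receptor word AGGTCA, was in 1 of 402. The remaining words searched were CACGTG (E-box), GGGTGTG (KLF), CCACNAGGG (CTCF), TGTGGTT (RUNX) and TGTTTAC (FOX), found in 3.67%, 6.68%, 1.29%, 6.77% and 5.11% of all distal windows. Of these windows 17.5% held the NFI word, 23.3% MEIS, 1.04% ERR, 20.7% AGGTCA and 17.2% TEAD. A match is a run of letters and not a measured binding site.

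**Figure D5:**
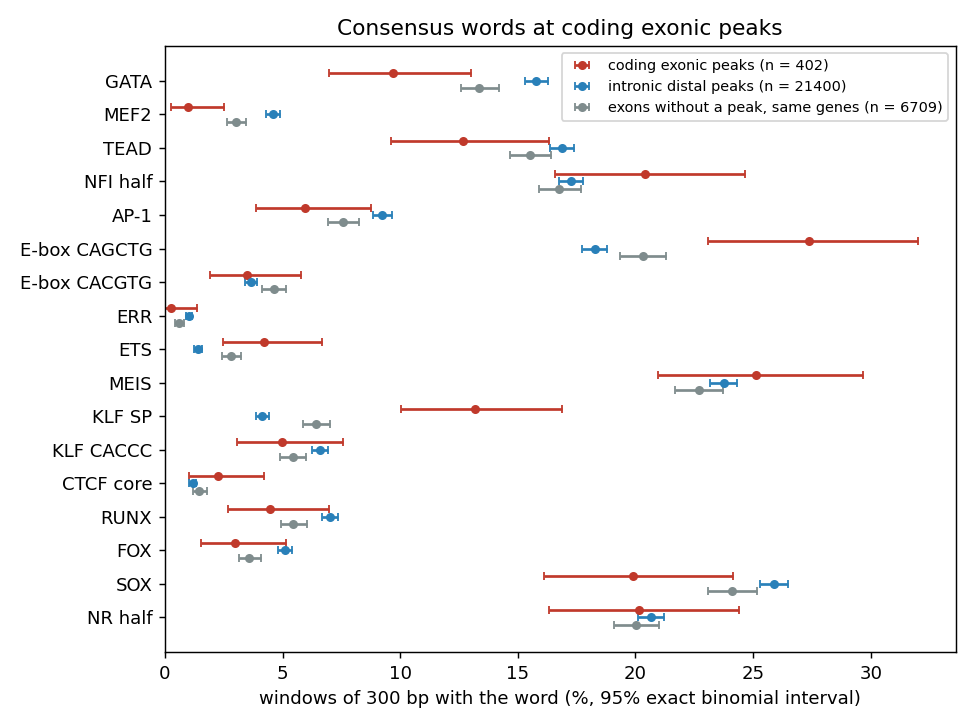
Share of 300 bp windows (horizontal axis, percent, from 0) that hold each consensus word on either strand, in 402 coding exonic peaks, 21400 intronic distal peaks and 6709 coding exons of the same genes without a peak; bars are 95% exact binomial intervals. The KLF SP word is at 13.2% in coding peaks against 4.14% and 6.42%, and the MEF2 word at 1.00% against 4.59% and 3.03%.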

How the data were processed

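Per the text files beside the libraries, the authors deposited 4 lists of peaks on mm10: replicated peaks and pseudoreplicated peaks from both biological replicates, and pseudoreplicated peaks from each. The lists hold the authors' fold, a ratio for each peak, the authors' −log10 p and −log10 q, and the summit as an offset into the peak. Neither aligner nor peak caller nor depth is given in the sources used here. The reads come from a hybrid but were placed on mm10, and what strain variants do to the peaks was not tested. No value exists per library, so precision is given as 95% intervals that cover only the counting of features. They are exact binomial for shares, exact Poisson for densities, exact conditional binomial for ratios of densities and order statistics for medians. Features are taken as independent, and many peaks lie close together, so the intervals may be too narrow. No significance test was made.

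TSSs, exons and 3′ ends came from GENCODE M21, sequence from GRCm38. Density divides the summits of peaks lying wholly over 2.5 kb from any TSS by all bases that far from any TSS. The TSS limit was thus stricter for peaks than for bases. Peaks overlapped if they shared 1 bp. Exon numbers are those of 1 representative transcript per peak. Exon classes were taken in the order coding, UTR, non-coding. Members and lists were chosen with earlier results of these data known. Genes are named if among the 12 highest by fold, 8 widest, 8 with most members, up to 3 per gene list, at the limits, with the 6 longest coding stretches, in the 6 printed windows or the 4 weakest; hosts without a promoter peak, the other peaks of named genes and further members of the lists were added after values were seen. The scripts, in Python 3.11.15 with numpy 2.4.6, pandas 2.3.3, scipy 1.17.1 and pysam 0.24.0, were tested on simulated peaks. Windows on chromosome 18 were neither counted among those eligible for printing nor printed. Some genes that the naming rule selects are left out of the text.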

Additional observations from a re-analysis of the deposited data

How the results depend on the processing

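Of 73 values recomputed under other settings, 60 stayed within 1.5 times the count or within the interval of the reported value, 12 moved and 1 turned direction. The number of peaks, 976, was 402 with coding sequence only, 573 with the summit over 1 kb from the 3′ end of every transcript and 326 with a fold of at least the list's median. The coding share, 41.2%, became 51.9% with exons of protein-coding transcripts only, 35.4% with the summit 25 bp inside the exon and 51.5% away from every transcript's 3′ end. The exon to intron density ratio, 0.870, became 0.803 for coding sequence. It was 0.808 with exons, but not introns, kept away from every transcript's 3′ end. The ratio was 0.748 in genes with a promoter peak, and 1.21, the other direction, against introns within 1 kb of an exon. The share in both replicate lists, 65.6%, became 70.2% at a −log10 q of at least 2, 97.9% at a fold of at least the median and 39.1% when overlap had to cover 50% of both peaks.

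Using 1 replicate list gave 813 to 1003 peaks, a coding share of 39.7% to 41.7%, a density ratio of 0.876 to 0.912, a median fold difference of -0.05 to -0.02 and 90.2% to 90.8% of hosts with a promoter peak. The median fold difference and the share of hosts with a promoter peak stayed within their intervals under all 13 settings tried for each. No paired analysis was possible because the lists hold no value per library and no test was made. Depth is unknown, and 403 of 976 summits (41.3%) lie within 1 kb of the 3′ end of some transcript, so class shares depend on the annotation.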
